A study of Mus musculus with 2 samples.

Results

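The T cells of the bone marrow were taken here as the barcodes that carried CD3 messages: of 19433 barcodes kept from 2 single-cell RNA libraries, 627 qualified, 437 of 11583 in the control and 190 of 7850 in the DKO. A barcode was kept with at least 500 UMIs (unique molecular identifiers, each standing for 1 captured RNA molecule), at most 20% mitochondrial UMIs and under 20% hemoglobin UMIs. A T cell had at least 2 UMIs over Cd3e, Cd3d and Cd3g, under 3 UMIs over the B cell genes Cd79a and Cd79b, and under 5% of its UMIs from the neutrophil granule genes S100a8, S100a9, Camp, Ngp and Ltf. These genes chose the cells, so their levels below are a description and not a finding.

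The study sequenced whole femoral marrow of DKO and control mice, 2 months old by its account, as 1 library per genotype. How many mice went into each library is not given. The study asked how the loss of both genes left the marrow's cell populations. The DKO genotype, labelled VavCre:Ddx41 fl/fl, cGAS-/-, lacked the helicase Ddx41 in blood-forming cells, where the Vav promoter drives Cre. It also carried the cGas deletion in every tissue. The control, labelled WT, was by the study's methods a littermate with the same floxed Ddx41 alleles, no VavCre and wild-type cGas. No library held either deletion alone, so the 2 deletions cannot be told apart, and with 1 library per genotype no difference between genotypes was tested. All intervals below are 95% intervals for counting error only and hold nothing of the spread between mice. Those of levels and ratios take each UMI as independent, so they also leave out the uneven spread of a gene over barcodes.

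T cells recognize antigen through a receptor of alpha and beta chains, or of gamma and delta chains, and signal through the CD3 and zeta subunits that travel with it. Marrow holds mature T cells that have left the thymus, among them memory cells that stay where the chemokine Cxcl12, read by the receptor Cxcr4, is made. cGAS senses DNA in the cytoplasm and, through STING, can start a type I interferon response, which switches on a known group of interferon-stimulated genes, while DDX41 is an RNA and DNA helicase.

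Cd3e, Cd3d and Cd3g sit together on chromosome 9, and Cd3d and Cd3g are read in opposite directions from starts 1355 bases apart (GRCm38, GENCODE M21). Their promoters are shown because these genes define the cells. Each sequence runs 5′ to 3′ on the gene's own strand from 250 bases before to 50 after the start (RefSeq, GRCm38.p6), with the E-box CAGGTG, a motif that E proteins bind, in capitals on either strand as CAGGTG or CACCTG.
Cd3e, chr9:45009562-45009861, minus strand: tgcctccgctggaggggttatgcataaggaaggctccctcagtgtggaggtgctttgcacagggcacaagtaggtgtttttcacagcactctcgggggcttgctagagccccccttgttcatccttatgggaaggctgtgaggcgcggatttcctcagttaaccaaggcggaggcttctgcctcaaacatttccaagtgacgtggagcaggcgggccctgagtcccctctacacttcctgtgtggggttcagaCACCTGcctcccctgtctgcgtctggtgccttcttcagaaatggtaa
Cd3d, chr9:44981536-44981835, plus strand: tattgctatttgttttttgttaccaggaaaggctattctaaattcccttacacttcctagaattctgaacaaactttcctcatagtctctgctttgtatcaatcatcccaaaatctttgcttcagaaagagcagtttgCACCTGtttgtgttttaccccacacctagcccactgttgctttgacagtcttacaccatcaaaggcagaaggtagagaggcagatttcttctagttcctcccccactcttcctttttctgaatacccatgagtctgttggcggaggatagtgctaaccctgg
Cd3g, chr9:44980382-44980681, minus strand: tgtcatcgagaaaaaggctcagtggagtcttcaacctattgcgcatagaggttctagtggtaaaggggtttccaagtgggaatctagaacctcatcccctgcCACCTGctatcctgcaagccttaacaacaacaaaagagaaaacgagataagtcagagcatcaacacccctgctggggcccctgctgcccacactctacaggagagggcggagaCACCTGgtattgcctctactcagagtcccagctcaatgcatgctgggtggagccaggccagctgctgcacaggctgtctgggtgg
The motif occurred 1 time in the Cd3e and Cd3d windows and 2 times in that of Cd3g, and 20.2% of all 32851 promoters of the same length held it. The motif was chosen after the sequences were read, and a match is no evidence that a factor binds there.

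The T cells carried the other messages that the label calls for. At least 1 constant chain of the T cell receptor was detected in 98.2% of control and 98.4% of DKO barcodes. The beta constant gene Trbc2 stood at 916 CPM (counts per 1000000 UMIs, after summing the UMIs of all cells of 1 kind in a library) in control T cells and 826 CPM in DKO T cells, against 0.522 and 0.0978 CPM in B cell barcodes, which were chosen by Cd79a and Cd79b. The alpha constant gene Trac stood at 379 and 279 CPM in T cells, against 14.7 and 3.84 CPM in natural killer (NK) barcodes, chosen by Ncr1 and Klrb1c without any CD3 UMI. Trbc1 and Trbc2 were not particular to T cells in that comparison, with 259 and 214 CPM in control NK barcodes. Cd79a, which the rule itself kept low, had 3 UMIs over all control T cells and 1 over all DKO T cells, a description only. The earliest thymic genes were close to absent, with Rag1 at 0 and 1 UMIs and the pre-receptor chain Ptcra at 1 and 4 UMIs in control and DKO.

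**Figure D1:**
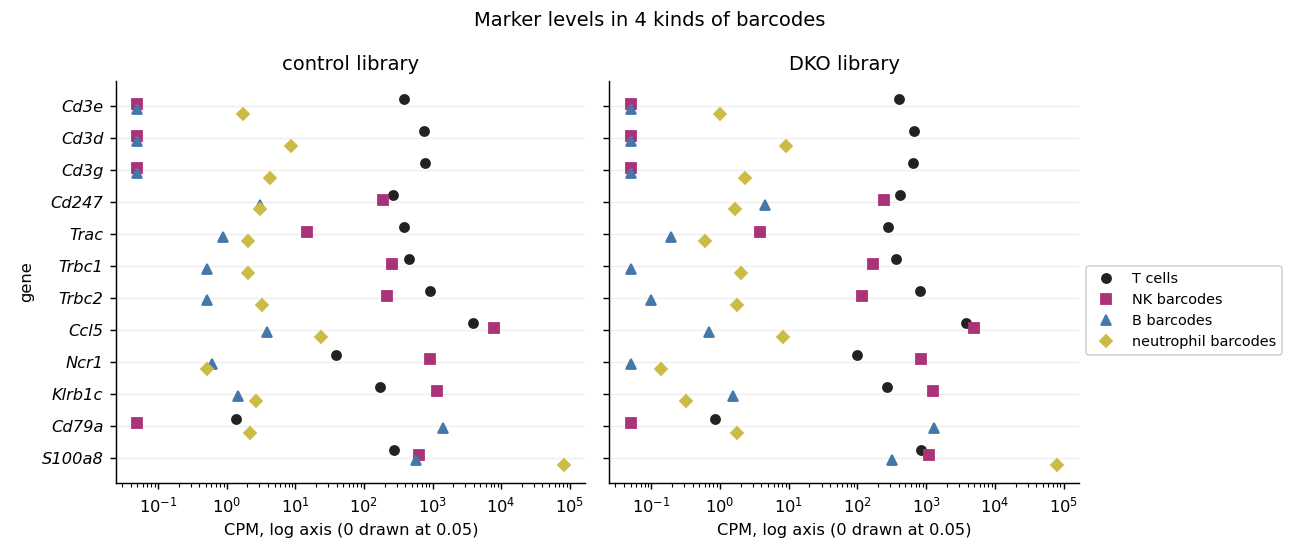
Level in CPM (log axis, 0 drawn at 0.05) of 12 marker genes in T cells, NK, B and neutrophil barcodes of the control library (left) and the DKO library (right). The CD3 genes, Cd79a, Ncr1, Klrb1c and S100a8 helped to choose the barcodes, and Trac and Trbc2, which did not, lie between 279 and 916 CPM in T cells and at 0.869 CPM or less in B barcodes.

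At the edge of the rule, a receptor message was common inside and rarer outside. Among control barcodes with a CD3 sum of exactly 2 UMIs, just inside, 21 of 24 held a receptor constant chain, while of those with a sum of 1, just outside, 12 of 45 did. In the DKO library the numbers were 7 of 9 and 11 of 34. These chains included Trbc1 and Trbc2, which NK barcodes also held. Trbc1 was in 55.7% of control and 54.5% of DKO NK barcodes, and Trbc2 in 40.5% and 34.1%. A receptor message at the edge thus does not separate T cells from NK cells. Most cells lay far from the edge, with a median CD3 sum of 9 UMIs in the control and 11 in the DKO. Some barcodes held genes of other cells: 64 control (14.6%) and 14 DKO barcodes (7.37%) had at least 2 UMIs over 12 genes of macrophages, B cells, dendritic cells, platelets, basophils, erythroid cells and granulocyte precursors, and 13 in each library carried the NK receptor Ncr1 and no Trac. The shares of T cells and of NKT genes, the counts of genes past 2-fold, the list medians and some of the named genes were repeated without the one or the other, and the comparison of Cd4 and Cd8 gates was not.

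The DKO cells were sequenced more deeply, at a median of 5502.5 UMIs and 2157 genes per barcode against 4213 UMIs and 1740 genes in the control. The summed depth was 1188155 UMIs in DKO and 2212376 UMIs in control T cells. Hemoglobin made up 0.974% of control and 0.251% of DKO T cell UMIs, and granule genes 0.0845% and 0.213%. The control file listed all barcodes and the DKO file none under 500 UMIs, so RNA free in solution could be measured in the control alone. Whether the DKO file holds called cells only is not known. There, hemoglobin made up 14.5% of empty-droplet UMIs, and from that share at most 6.72% of control T cell UMIs could have been free RNA. No T cell barcode sequence occurred in both libraries, though 27 of all kept barcode sequences did.

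T cells made up 3.77% of kept control barcodes (interval 3.43% to 4.14%) and 2.42% of kept DKO barcodes (interval 2.09% to 2.78%). The shares depend on how many other barcodes were kept, and the files may differ in how the listed barcodes were chosen. With at least 1000 UMIs per barcode the shares were 4.23% and 2.66%.

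The coreceptors divide T cells into helper and regulatory cells, which carry Cd4, and mostly cytotoxic cells, which carry Cd8a and Cd8b1. Barcodes with a Cd8 gene and no Cd4 were 156 of 437 in the control (35.7%, interval 31.2% to 40.4%) and 60 of 190 in the DKO (31.6%, interval 25% to 38.7%). Barcodes with Cd4 and no Cd8 gene were 47 (10.8%, interval 8.01% to 14.0%) and 26 (13.7%, interval 9.14% to 19.4%). The intervals overlap for both gates, so no difference in either share was detectable at this depth. In B cell barcodes, which should lack both, the Cd8 gate held 0.0848% and 0.128%, and the Cd4 gate 1.06% and 0.513%. A further 231 control (52.9%) and 101 DKO barcodes (53.2%) had none of these 3 genes, and 3 in each library had both kinds.

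Detection depends on depth, so every barcode was also thinned to 1000 UMIs, which left out 6 control barcodes and no DKO barcode. The Cd8 gate then held 17.2% of control and 14.2% of DKO barcodes, and the Cd4 gate 5.80% and 3.68%. The order of the libraries in the Cd4 gate thus turned with the thinning, within overlapping intervals. The Cd8 alpha and beta chains were found together in 83 control and 39 DKO barcodes, the alpha chain alone in 29 and 11, and the beta chain alone in 47 and 13.

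Barcodes with no coreceptor message had a median depth of 3816 UMIs in the control and 5642 UMIs in the DKO, against 3009 and 4108.5 UMIs in the Cd4 gate and 4978.5 and 6170 UMIs in the Cd8 gate. Klrb1c, which encodes the receptor NK1.1 of NK and NK-like T cells, was found in 109 of 231 such control barcodes (47.2%) and 62 of 101 DKO barcodes (61.4%). In the Cd8 gate it was found in 10 of 156 (6.41%) and 11 of 60 (18.3%). Over all T cells Klrb1c was detected in 28.6% of control barcodes (interval 24.4% to 33.1%) and 39.5% of DKO barcodes (interval 32.5% to 46.8%), and after thinning in 12.8% and 22.6%. In B cell barcodes the share was 0.636% and 0.705%, at median depths of 2741 and 3857 UMIs. Without the barcodes that had Ncr1 and no Trac, Klrb1c was detected in 26.4% (interval 22.3% to 30.9%) and 35.0% (interval 28.0% to 42.5%). Of the barcodes with Klrb1c, 60.8% in the control and 68.0% in the DKO also had Trac.

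Genes that mark natural killer T (NKT) cells were found in a larger share of DKO barcodes at full depth. Traj18, the joining segment that invariant NKT cells use in their alpha chain (chromosome 14, 54200777 to 54200842), was detected in 14 of 437 control barcodes (3.20%, interval 1.76% to 5.32%) and 16 of 190 DKO barcodes (8.42%, interval 4.89% to 13.3%). It had 18 UMIs in the DKO, the most of the 60 alpha joining segments listed there, and was found in 1 of 2359 control and 0 of 1560 DKO B cell barcodes, the latter a count of 0 that allows a share of up to 0.192% by a limit of 3 counts and 0.236% by the exact interval. Klrb1c was found beside Traj18 in 6 of the 14 control and 8 of the 16 DKO barcodes, and a Cd8 gene in 2 and 6, although mouse invariant NKT cells as a rule lack Cd8. Zbtb16, which encodes PLZF, the factor that directs NKT development, was detected in 3.20% (interval 1.76% to 5.32%) and 11.6% (interval 7.40% to 17%). Its background was 0.721% and 1.15% in B cell barcodes and 1.47% (interval 1.09% to 1.93%) and 3.42% (interval 2.81% to 4.12%) in neutrophil barcodes, higher in the DKO there too, and NK barcodes, which can express it, held it in 7.59% and 13.6%. Either of these genes was found in 26 control barcodes (5.95%, interval 3.92% to 8.60%) and 36 DKO barcodes (18.9%, interval 13.6% to 25.3%). With Traj18 in 14 and 16 barcodes and Zbtb16 in 14 and 22, few barcodes held both. Whether barcodes with either gene are NKT cells was not tested. After thinning, the shares with either gene were 1.86% (interval 0.805% to 3.62%) and 6.32% (interval 3.31% to 10.8%). Those of Traj18 were 0.928% (interval 0.253% to 2.36%) and 2.63% (interval 0.860% to 6.03%). Both pairs of thinned intervals overlap. At full depth the shares with either gene were 4.83% and 17.6% without the barcodes that held markers of another cell type, and 6.13% and 18.1% without those that had Ncr1 and no Trac. Without replicate libraries, nothing says how far such shares differ between mice of 1 genotype.

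Gamma delta T cells can be read from the delta constant gene Trdc, detected in 34 control (7.78%, interval 5.45% to 10.7%) and 28 DKO barcodes (14.7%, interval 10.0% to 20.6%). After thinning the shares were 4.87% and 6.84%, with overlapping intervals, and NK barcodes, which lack CD3, held Trdc in 20.3% and 20.5%. Trac was found beside it in 8 of the 34 control and 4 of the 28 DKO barcodes. Of the regulatory T cell genes, Foxp3, the factor that defines those cells, was found in 5.49% and 8.42% of barcodes, in 9 of 47 and 4 of 26 of the Cd4 gate, and in 1 of 156 and 0 of 60 of the Cd8 gate.

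Genes of the IL-17 gamma delta lineage were higher in the DKO through 2 barcodes. Blk, Cd163l1, Il23r, Sox13, Il17a and the variable segment Trdv4 together had 15 UMIs in control and 101 in DKO T cells, and 97 of the latter came from the 2 DKO barcodes that held at least 2 of these genes. The control also had 2 such barcodes, with 5 of its 15 UMIs, at a median depth of 1723.5 UMIs against 7462 in the DKO. All 4 barcodes carried Trdc and none carried Trac, Klrb1c, Ccl5 or a coreceptor gene. Il17a, the cytokine itself, had 0 and 4 UMIs. Ncr1, an NK receptor, had 88 UMIs in control and 117 in DKO T cells and was detected in 4.12% (interval 2.46% to 6.43%) and 11.6% (interval 7.40% to 17%) of barcodes. The Ly49 gene Klra8 had 30 and 77 UMIs, of which 68 of the DKO ones lay in barcodes with Ncr1 and no Trac, as did 58 of 58 for Klra4 and 60 of 75 for Klri2. In the control such barcodes held 25 of 30 UMIs for Klra8, 22 of 27 for Klra4 and 12 of 25 for Klri2.

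**Figure D2:**
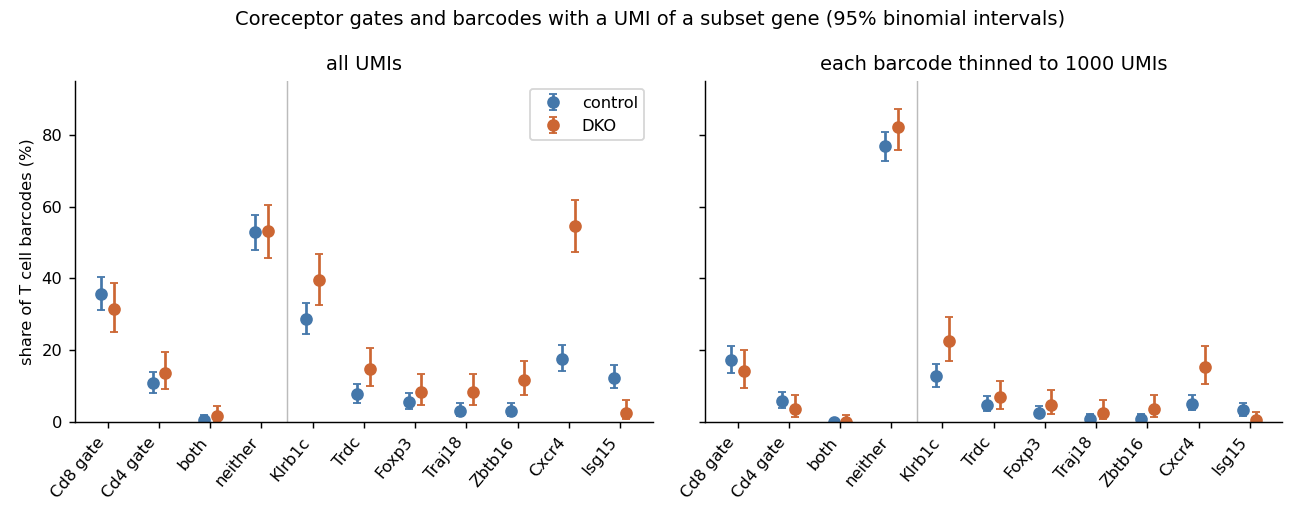
Share of T cell barcodes (%) in 4 coreceptor gates and with at least 1 UMI of 7 genes, with 95% binomial intervals, at full depth (left) and with each barcode thinned to 1000 UMIs (right). The Cd8 and Cd4 gates overlap between control and DKO, while Cxcr4 stands at 17.6% and 54.7% and Isg15 at 12.4% and 2.63% at full depth.

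The gates held the genes known for each lineage in both libraries. Of 191 genes of the lists with at least 50 CPM on average, 24 were at least 2-fold higher in the Cd4 gate in both libraries, with both intervals above 0, and 7 were at least 2-fold higher in the Cd8 gate. The Cd4 side included Tnfrsf4 (OX40), at 202 CPM in the Cd4 gate and 7.71 CPM in the Cd8 gate of the control, and at 118 and 4.92 CPM in the DKO. Ctla4, an inhibitory receptor of regulatory cells, stood at 202 and 19.8 CPM in the control and 275 and 29.5 CPM in the DKO. Izumo1r (folate receptor 4) had 202 and 18.7 CPM in the control and 236 and 9.84 CPM in the DKO. The Cd8 side included Klrd1, Klrk1, Ly6c2, Actn1, Ctsw and Ccl5, among them receptors of cytotoxic cells. Ccl5, a chemokine of memory and cytotoxic cells, stood at 3350 CPM in the Cd8 gate and 1236 CPM in the Cd4 gate of the control, and at 4021 and 960 CPM in the DKO.

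Cd3e, Cd3d and Cd3g chose the cells, and their levels are given as a description only. Cd3e stood at 389 CPM in control and 397 CPM in DKO T cells, a log2 ratio of DKO over control of 0.03. Cd3d was at 753 and 675 CPM (log2 ratio -0.16) and Cd3g at 765 and 649 CPM (log2 ratio -0.24). Trac had the lowest ratio of the receptor chains above 50 CPM, with 839 UMIs in the control and 331 in the DKO (log2 ratio -0.45, interval -0.63 to -0.26). Cd247, the zeta chain that carries most of the signalling motifs, was higher, at 265 and 414 CPM (log2 ratio 0.64, interval 0.47 to 0.82). Of the coreceptors, Cd8a (log2 ratio -0.07) and Cd8b1 (log2 ratio -0.37) were not past 2-fold, nor was Cd4 (log2 ratio 0.42).

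Ddx41, the deleted gene, had 59 UMIs in control T cells (26.7 CPM) and 24 in DKO T cells (20.2 CPM), a log2 ratio of -0.40 (interval -1.15 to 0.31). In the same libraries the ratio was -0.98 (interval -1.22 to -0.74) in B cell barcodes and -0.99 (interval -1.26 to -0.73) in neutrophils. Cgas had 35 and 11 UMIs in T cells (log2 ratio -0.77, interval -1.90 to 0.24), and its ratio was -1.31 (interval -1.81 to -0.83) in B cell barcodes. The intervals of both genes in T cells hold 0, so a difference was not detectable at this depth. The libraries count tags at the 3′ end of a transcript, and which exons are deleted is not given in the sources used here, so these counts do not check the labels.

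Over the 3349 genes with at least 50 CPM on average, the median log2 ratio was 0.13, and 62.0% of them had a ratio above 0. At least 2-fold higher in DKO T cells were 19 genes (0.567% of those compared), and at least 2-fold lower were 37 (1.1%), together 1.67%. Without the barcodes that held markers of another cell type, 20 genes were higher and 13 lower, 12 of each shared with the first sets. A set of 11 higher and 11 lower genes was past 2-fold there and also with at least 3 CD3 UMIs per barcode and without the barcodes with Ncr1 and no Trac. That set covers these 3 alternatives and no others. With granule genes under 1%, 14 of the 19 higher and 35 of the 37 lower genes stayed past 2-fold, and after thinning 10 and 15 did. The 11 higher genes were Cxcr4, Nt5e, Gprin3, Trp53inp1, Mdfic, Il12rb2, Sesn1, Map3k5 and the neutrophil genes Retnlg, S100a8 and S100a9. S100a8 and S100a9 are genes of the rule, which limited them in each barcode. The 11 lower genes included Gm10076, Ifi27l2a, Cd69, Plac8, Lgals3, Cst3, Cxcl12, Hist1h2ap, Pclaf and Lsm7.

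The genes with the lowest ratios show how few barcodes can decide a sum. Prss34 and Mcpt8, proteases of basophils, had 629 and 393 UMIs in control T cells and 0 and 1 in DKO T cells, and 1 control barcode held 99.0% and 98.2% of them. Pf4, a platelet chemokine, had 578 and 7 UMIs, with 65.9% of the control UMIs in 1 barcode. Mcpt8 and Pf4 are among the 12 genes by which barcodes with markers of another cell type were found, so they have no separate reading without those barcodes. Hbb-bs, a beta globin, was at 5561 and 1285 CPM, and at 2084 and 1298 CPM without those barcodes. Cxcl12, a chemokine made by marrow stroma, had 293 and 17 UMIs, 34.8% of the control ones in 1 barcode. Hist1h2ap, a replication-dependent histone gene, had 587 and 27 UMIs, spread over more barcodes in the control (14.0% in 1) than in the DKO (44.4% in 1). On the other side, S100a8 and S100a9 had 611 and 893 UMIs in control and 1006 and 1374 UMIs in DKO T cells, and 1 DKO barcode held 26.4% and 27.1% of the latter. S100a8 was nonetheless detected in a smaller share of DKO barcodes, 46.8% against 61.1% in the control. Retnlg, a neutrophil gene outside the rule, had 45 and 240 UMIs. Neutrophil genes as a group summed to 984 CPM in control and 2432 CPM in DKO T cells, but to a median of 746 and 431 CPM per barcode.

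**Figure D3:**
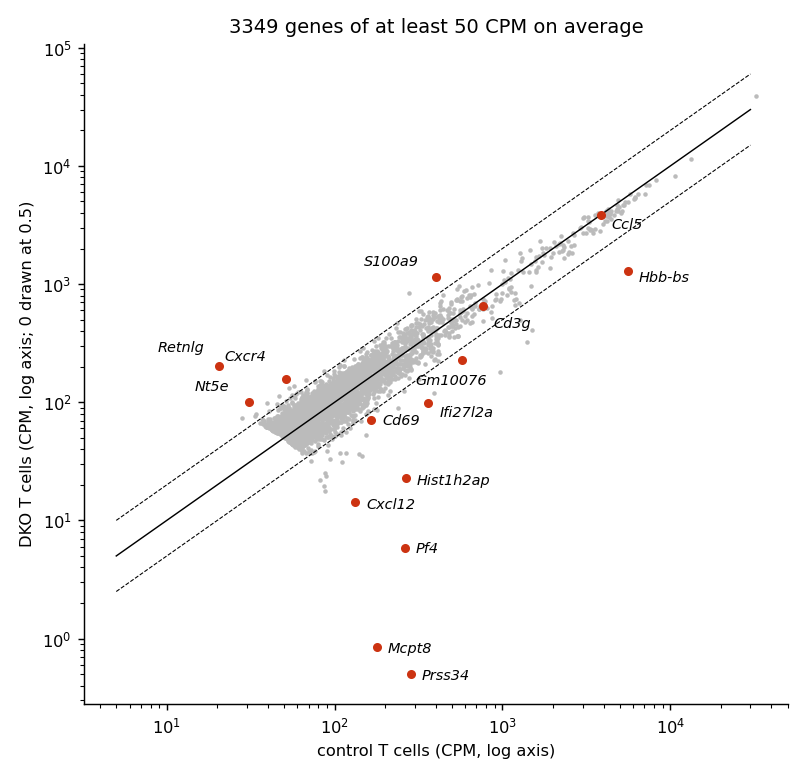
Level in CPM of 3349 genes in control (x axis) and DKO (y axis) T cells, both log axes, with equality as a solid line and 2-fold as broken lines. Most genes lie within the broken lines, with Cxcr4 and Nt5e above them, Ifi27l2a and Cd69 below, and Prss34 and Mcpt8, which rest on 1 control barcode, at the bottom.

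Cxcr4, the receptor that holds leukocytes in the marrow (chromosome 1, 128588199 to 128592293), was higher in the DKO. It had 113 UMIs in control T cells (51.1 CPM) and 188 in DKO T cells (158 CPM), 3.10-fold, with a log2 ratio of 1.63 (interval 1.29 to 1.98). It was detected in 17.6% of control and 54.7% of DKO barcodes, in 5.10% and 15.3% after thinning, and no barcode held more than 5.31% of its UMIs. The direction was the same in the Cd8 gate (55.0 and 177 CPM), in the Cd4 gate (21.3 and 102 CPM) and in barcodes of neither gate (52.3 and 164 CPM). It was also higher outside T cells, with log2 ratios of 1.50 (interval 0.68 to 2.36) in NK, 0.95 (interval 0.86 to 1.04) in B and 0.58 (interval 0.51 to 0.65) in neutrophil barcodes. In T cells the interval lies above those of B and neutrophil barcodes, and the difference between cell types was not tested.

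Cd69, an early activation marker that also marks tissue-resident cells, had 366 UMIs in control and 84 in DKO T cells (log2 ratio -1.23, interval -1.59 to -0.88). Its level was 165 and 70.7 CPM, and in B cell barcodes 112 and 72.1 CPM (log2 ratio -0.63). Nt5e, which encodes CD73, an enzyme that makes adenosine from AMP, had 68 and 119 UMIs (30.7 and 100 CPM, log2 ratio 1.70, interval 1.26 to 2.16). It was found in 12.6% of control and 35.8% of DKO T cells and in 0.509% and 0.769% of B cell barcodes. Nt5e was higher in DKO neutrophil barcodes too, with 432 and 883 UMIs (log2 ratio 1.15, interval 0.98 to 1.32), in 9.29% and 17.9% of them. Among memory and residency genes as a whole, 13 of the 23 compared had a ratio above 0 and 10 below, with a median of 0.35. Itga4, the alpha chain of the integrin VLA-4, was at 317 and 593 CPM (log2 ratio 0.90), Cxcr6 at 83.2 and 151 CPM (log2 ratio 0.87) and Cd44, a hyaluronan receptor raised on memory cells, at 155 and 237 CPM (log2 ratio 0.61). Lgals3, which myeloid cells also make, had 340 and 63 UMIs (log2 ratio -1.54).

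Further genes lay past 2-fold. Gprin3 had 118 and 156 UMIs (53.3 and 131 CPM) and Mdfic 103 and 135 UMIs (46.6 and 114 CPM). Il12rb2, a chain of the IL-12 receptor by which T cells turn to interferon gamma production, had 75 and 94 UMIs (33.9 and 79.1 CPM) and was found in 14.0% and 28.4% of barcodes. Map3k5, a stress-activated kinase, lay just past the limit with 60.6 and 122 CPM (log2 ratio 1.01). On the lower side, Plac8 had 864 and 142 UMIs (log2 ratio -1.71), Cst3, abundant in dendritic cells and macrophages, had 527 and 107 UMIs (log2 ratio -1.40), and Blvrb, an erythroid reductase, had 195 and 21 UMIs, 29.7% of the control ones in 1 barcode.

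Genes of naive and recirculating cells gave a median of 0.17 over 14 genes, near the 0.13 of all genes. S1pr1, the receptor by which T cells leave tissues (log2 ratio 0.06), Ccr7 (log2 ratio 0.07) and Klf2 (log2 ratio 0.07) were close to even, and Il7r, the receptor of the survival cytokine IL-7, stood at 364 and 581 CPM (log2 ratio 0.67). Igfbp4 was the exception, at 191 and 23 UMIs (log2 ratio -2.16), with 18.3% of the control UMIs in 1 barcode. Cytotoxic effector genes gave a median of -0.01 over the 9 compared, of 19 listed. Ccl5 was at 3853 CPM in control and 3846 CPM in DKO T cells, Nkg7 at 786 and 717 CPM, and Klrd1 at 358 and 357 CPM. Granzymes were rare, with Gzma at 95 and 34 UMIs, 91.2% of the DKO ones in 1 barcode, and Gzmb at 40 and 17 UMIs.

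Receptor signalling genes leaned upward together without any past 2-fold: 18 of the 19 compared had a ratio above 0, with a median of 0.35, against the median of 0.13 over all genes. Themis, which tunes receptor signals, was at 328 and 508 CPM (log2 ratio 0.63) and the kinase Lck at 247 and 270 CPM (log2 ratio 0.13). Transcription factors of the T lineage had a median of 0.43, with 14 of 15 above 0, led by Eomes (log2 ratio 0.96) and Id2 (log2 ratio 0.84). Foxo1 was the 1 below 0 (log2 ratio -0.15). Eomes is also an NK gene. Without the barcodes with Ncr1 and no Trac it was at 0.55, on 98 and 72 UMIs, and Id2 at 0.88. Tcf7, the factor of T cell self-renewal, stood at 257 and 386 CPM (log2 ratio 0.59). The signalling list was at 0.28 in B cell barcodes, over 6 genes compared there, and at 0.39 in NK barcodes, over 15. The transcription factors were at 0.39 over 9 genes and 0.45 over 14. A lean was thus not seen in T cells alone, though the genes compared differ. Cytokine receptors and their kinases had a median of 0.36 over 19 genes, with Il18rap at 0.88 and Tgfbr1 at 0.85.

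Ribosomal protein genes lay slightly lower, with a median of -0.15 over 82 genes, 61 of them below 0 and none past 2-fold. They summed to 267985 CPM in control and 243573 CPM in DKO T cells, and their median was -0.20 in B cell and -0.22 in NK barcodes. Rpl35 (log2 ratio -0.49) and Rpl15 (log2 ratio -0.48) were lowest, while Rps29 was at 0.25 and Rps27rt at 0.79. Gm10076, a predicted gene, was at -1.34 in T cells, -1.50 in B, -1.71 in NK and -1.85 in neutrophil barcodes. It has near-identical copies elsewhere in the genome, so its counts are uncertain.

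Of the p53 targets, 6 of 22 were compared, with a median of 0.35. Trp53inp1, which acts in cell death and autophagy, had 126 and 162 UMIs (57.0 and 136 CPM, log2 ratio 1.26, interval 0.91 to 1.61), and Sesn1, a stress-induced inhibitor of mTORC1, had 150 and 182 UMIs (log2 ratio 1.18, interval 0.86 to 1.50). Trp53 itself was at 118 and 120 CPM (log2 ratio 0.02), Mdm2 at 0.27 and Bax at -0.43. Cdkn1a had only 11 and 5 UMIs, too few for a reading. Trp53inp1 was also above 0 in B (0.42), NK (1.42) and neutrophil barcodes (0.76), and Sesn1 in B (0.21), NK (1.02) and neutrophils (0.25).

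Cycling genes had a median of -0.40 over 10 genes, which was -1.25 over 9 without the barcodes with Ncr1 and no Trac and -0.19 over 8 without those with markers of another cell type. In all T cells Birc5 had 196 and 28 UMIs (log2 ratio -1.91) and Stmn1 574 and 147 UMIs (log2 ratio -1.07). Without the first kind of barcode Birc5 had 180 and 11 UMIs (log2 ratio -3.04) and Stmn1 546 and 90 UMIs (log2 ratio -1.61). Without the second kind Birc5 had 111 and 22 UMIs (log2 ratio -1.70), and Stmn1, with 317 and 106 UMIs (log2 ratio -0.94), was no longer past 2-fold. Mki67 was level at 81.4 and 85.0 CPM, but 66.3% of the DKO UMIs came from 1 barcode. Mki67 was detected in 11.4% of control and 6.84% of DKO barcodes. Without the barcodes with Ncr1 and no Trac, Mki67 had 173 and 30 UMIs (log2 ratio -1.54), and without those with markers of another cell type 88 and 90 UMIs (log2 ratio 0.67), so its direction depends on a few barcodes.

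The interferon-stimulated genes divided by level. Of the 41 in the list, the 20 at or above 50 CPM on average gave a median of -0.01, with 10 above and 10 below 0. Shisa5 was at 688 and 695 CPM (log2 ratio 0.02) and Sp100 at 374 and 397 CPM (log2 ratio 0.09). Of the 21 below that level, 19 had a ratio below 0 and 12 were at least 2-fold lower, with none 2-fold higher and a median of -1.30. Of all 6767 genes in the same range of levels, from 4.68 to under 50 CPM with at least 1 UMI in each library, 7.06% were at least 2-fold lower, 6.04% at least 2-fold higher, and the median was 0.06. Of the interferon genes under 50 CPM, 12 of 20 were at least 2-fold lower without the barcodes with Ncr1 and no Trac and 12 of 19 without those with markers of another cell type. Levels are means of both libraries, so a gene far lower in the DKO is more often under 50 CPM, as Isg15 was.

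The promoters of 2 of the genes with the lowest ratios are shown with the interferon-stimulated response element, searched on either strand as GAAA, any 2 bases and GAAA, in capitals (RefSeq, GRCm38.p6, gene's strand, 250 bases before to 50 after the start).
Isg15, chr4:156200769-156201068, minus strand: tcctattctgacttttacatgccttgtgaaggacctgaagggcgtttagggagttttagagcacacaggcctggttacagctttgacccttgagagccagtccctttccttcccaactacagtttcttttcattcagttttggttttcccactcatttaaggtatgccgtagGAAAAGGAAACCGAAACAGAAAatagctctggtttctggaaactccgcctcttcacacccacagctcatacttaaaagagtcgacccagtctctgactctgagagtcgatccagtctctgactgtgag
Ifit3, chr19:34583279-34583578, plus strand: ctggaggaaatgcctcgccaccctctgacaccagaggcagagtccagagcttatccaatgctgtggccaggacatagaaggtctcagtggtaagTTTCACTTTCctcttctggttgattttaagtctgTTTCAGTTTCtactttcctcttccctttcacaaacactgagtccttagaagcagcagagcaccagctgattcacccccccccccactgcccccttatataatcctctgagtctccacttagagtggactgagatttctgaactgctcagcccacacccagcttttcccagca
Isg15 held 3 overlapping matches in 1 block and Ifit3 held 2 on the opposite strand. The motif was found in 3.44% of the 32851 promoters, in that of Bst2 (2 matches) and not in that of Irf7, and a missing match says nothing on the gene's control.

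Isg15, a ubiquitin-like protein induced by interferon, had 156 UMIs in control and 6 in DKO T cells (70.5 and 5.05 CPM), 14.0-fold lower in the DKO with a log2 ratio of -3.80 (interval -5.27 to -2.65). It was detected in 12.4% of control barcodes (interval 9.42% to 15.8%) and 2.63% of DKO barcodes (interval 0.860% to 6.03%). Control UMIs were spread unevenly, with 11 barcodes at 4 or more and a highest of 21, while no DKO barcode had more than 2. In control barcodes with Isg15 the other 40 genes of the list summed to 6407 CPM, against 4297 CPM in those without. In the DKO these sums were 3400 and 4133 CPM, but only 5 barcodes held Isg15 there, against 54 in the control, too few for a reading. Barcodes with Isg15 were deeper in the control, at a median of 5963.5 UMIs against 4019.

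Ifit3, an interferon-induced antiviral protein, had 63 and 3 UMIs in control and DKO (log2 ratio -3.50, interval -5.81 to -1.88), Ifit1 58 and 2 UMIs (log2 ratio -3.96, interval -7.04 to -2.04), and Rsad2 49 and 4 UMIs (log2 ratio -2.72). Irf7, the factor that amplifies the response, had 59 and 11 UMIs (log2 ratio -1.53), and Usp18, which curbs interferon signalling, had 67 and 9 UMIs (log2 ratio -2.0). Ifi27l2a was the most abundant of the listed interferon genes past 2-fold, with 800 and 117 UMIs (362 and 98.5 CPM, log2 ratio -1.88, interval -2.17 to -1.60). It was detected in 42.6% and 23.2% of barcodes. Bst2 (tetherin) had 348 and 99 UMIs (log2 ratio -0.92), with 35.4% of the DKO ones in 1 barcode. Ifit1 and Ifit3, like the globin, Klra and MHC class I genes, have close relatives with which reads may be shared.

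**Figure D4:**
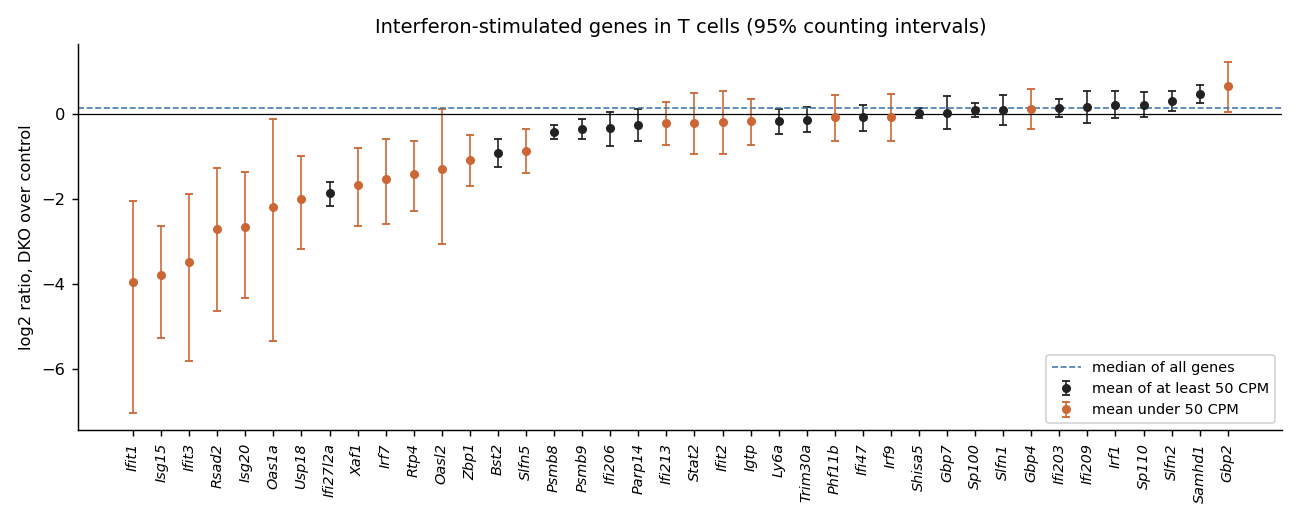
Log2 ratio of DKO over control in T cells for 40 of the 41 interferon-stimulated genes, ordered by ratio, with 95% counting intervals. Black points average at least 50 CPM and orange points less, and the broken line is the median of all 3349 genes (0.13). The genes at the left, from Ifit1 (-3.96) and Isg15 (-3.80) on, are nearly all orange.

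Lower values were also found in other barcodes, though not for every gene. Isg15 was at -1.54 (interval -1.88 to -1.22) in B and -2.06 (interval -2.28 to -1.84) in neutrophil barcodes, both above the T cell interval. That interval takes each UMI as independent, though 11 control T cell barcodes held 4 or more, and the difference between cell types was not tested. In NK barcodes Isg15 was at -3.20 (interval -8.62 to -0.44) on 12 and 1 UMIs. Ifit3 was at -1.76 in B and -1.80 in neutrophil barcodes, with intervals that overlap that of T cells. Ifit1 was at -1.76 in neutrophil barcodes, while in B barcodes its 28 and 19 UMIs gave -0.39 with an interval that holds 0 (-1.31 to 0.50). Ifi27l2a was at -1.63 in B and -2.01 in neutrophil barcodes, and at -0.39 in NK barcodes on 12 and 7 UMIs (interval -1.98 to 1.07). Without the barcodes that held markers of another cell type, Isg15 in T cells had 100 and 6 UMIs (log2 ratio -3.42) and Ifit3 57 and 2 (log2 ratio -4.19, interval -7.27 to -2.28). MHC class I genes, which interferon also raises, were even, with a median of 0.10 over 12 genes, among them H2-K1 at 0.02 and H2-D1 at 0.00. Of the other nucleic acid sensors, Tmem173, which encodes STING, had 87 and 48 UMIs (log2 ratio 0.04) and Ddx58, which encodes RIG-I, 139 and 85 UMIs (log2 ratio 0.19).

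**Figure D5:**
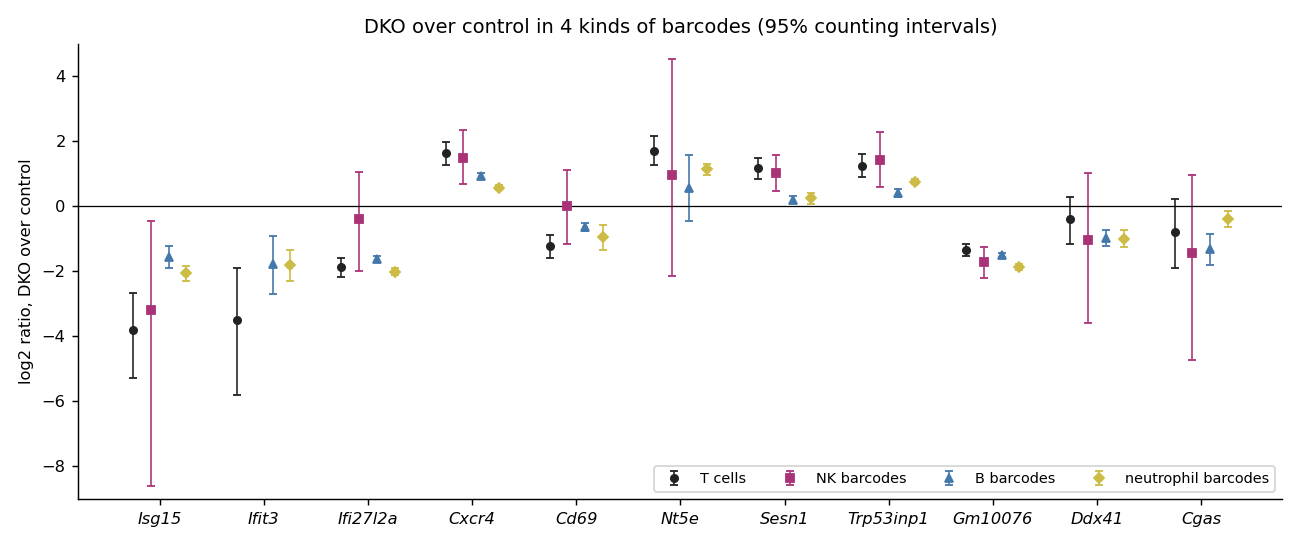
Log2 ratio of DKO over control for 11 genes in T cells, NK, B and neutrophil barcodes, with 95% counting intervals. Isg15 and Ifi27l2a lie below 0 and Cxcr4 above it in T cells, B and neutrophil barcodes, Gm10076 lies between -1.85 and -1.34 in all 4, and Ifit3 in NK barcodes has no UMIs and is not drawn.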

How the data were processed

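Bone marrow cells of control and DKO mice, 2 months old, were counted as 1 library per genotype with the Chromium Single Cell 3' v3 kit. Per the labels and file headers, the authors made the deposited counts with Cell Ranger 7.1.0 on mm10, as unnormalized UMI counts per gene and barcode. The control file lists 1518290 barcodes (135693452 UMIs) and the DKO file 14142 (117725934 UMIs), none of the latter under 500 UMIs. Depth per T cell barcode was 583 to 38148 UMIs in the control and 1073 to 28411 in the DKO.

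UMIs were summed over the T cells of a library, divided by their total and compared as a log2 ratio with an exact conditional binomial 95% interval. Shares have exact Clopper-Pearson intervals. Genes with a mean of at least 50 CPM over both libraries were compared, and 2-fold was the size rule. No prior count was added. Comparison barcodes were B (Cd79a and Cd79b sum of at least 3, no CD3), NK (Ncr1 and Klrb1c sum of at least 2, no CD3) and neutrophil (granule genes at least 5%). No doublet caller was run; doublets were handled by marker rules. Thinning was 1 random draw. With 1 library per genotype no test was made.

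Members and gene lists were chosen with earlier results of these data known. Named genes were the receptor, coreceptor and deleted genes, the extremes and most abundant of each list, the 10 highest and 10 lowest genes by the interval bound nearest 0, genes leading T cells over B and NK barcodes, and list genes differing 2-fold between gates; further genes were named after their values were seen (Il12rb2, Map3k5, Plac8, Cst3, Traj18, the Ly49 and IL-17 lineage genes). Methods were tested on simulated counts. Python 3.11.15, numpy 2.4.6, scipy 1.17.1, pandas 2.3.3 and matplotlib 3.10.9 were used. Gene positions are from GENCODE M21 and promoters from RefSeq. Alternatives tried were other barcode limits, gene minimums, scaling, thinning and the removal of doubtful barcodes, the last partly (barcodes with Ncr1 and no Trac) chosen after seeing the data. A few genes under these rules are not reported here.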

Additional observations from a re-analysis of the deposited data

Results flagged for a closer look

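Of the 44 genes past 2-fold in T cells that could also be compared in B cell barcodes, 7 had the opposite direction there, and the difference between the cell types was not tested. S100a8 had a log2 ratio of DKO over control of 1.62 in T cells and -0.85 in B cell barcodes, with 276 and 847 CPM in control and DKO T cells against 573 and 318 CPM in B cell barcodes. S100a9 was at 1.52 and -0.96. Both kinds of barcodes were kept only with granule genes, S100a8 and S100a9 among them, under 5% of UMIs. In DKO T cells 1 barcode held 26.4% of the S100a8 and 27.1% of the S100a9 UMIs. Pf4 was at -5.47 in T cells and 0.43 in B cell barcodes, Cxcl12 at -3.21 and 0.56, and Hba-a1 at -1.87 and 0.16. Cd24a, a surface protein of immature blood cells, was at -1.9 (181 and 26 UMIs) and 0.21. Mcpt8 was at -7.72 on 393 and 1 UMIs (interval -13.03 to -5.24), with 98.2% of the control UMIs in 1 barcode, and at 4.33 in B cell barcodes on 62 and 1112 UMIs. Cd24a stood at 522 and 606 CPM in control and DKO B cell barcodes, against 81.8 and 21.9 CPM in T cells. Apart from Cd24a, these genes are markers of cells other than T and B cells. The part of RNA from other cells in these values was not tested.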

How the results depend on the processing

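Over 12 results and 11 alternatives, 101 of 114 values stayed within the limits set for a change and 13 moved. The median of the cytotoxic list, -0.01, was 0.03 with granule genes under 1%, and that of the interferon list, -0.01, was 0.01 with at least 3 CD3 UMIs and 0.0016 without the barcodes with Ncr1 and no Trac, all near 0. Thinned to 1000 UMIs, the Cd8-gated share was 17.2% in the control and 14.2% in the DKO. The control T cell share was 4.23% with a minimum of 1000 UMIs and 3.22% without barcodes that held markers of another cell type. Genes at least 2-fold higher numbered 19 and became 30 with at least 3 CD3 UMIs, 7 at a minimum of 100 CPM, 944 of 13236 with no minimum and 125 after thinning. Genes at least 2-fold lower numbered 37 and became 59, 18, 1068 and 77 in the same order, and 13 without barcodes with markers of another cell type. Fewer genes or fewer UMIs enter under the stricter minimum and the thinning by construction; for the others the cause was not tested. The median over all genes lay between 0.09 and 0.14 throughout. No paired analysis was possible because each genotype had 1 library, and for the same reason none could be left out. Depth limits genes under 50 CPM, where a few UMIs decide a ratio.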

Other observations

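In control T cells the most detected alpha joining segment was Traj27, with 17 UMIs of 66 over 16 segments, and in DKO T cells Traj18, with 18 of 65 over 14 segments. Segments at the 5′ end of a message are rarely read by a 3′ kit, and beta variable segments had only 54 and 17 UMIs. Both beta constant genes were found in 197 control and 90 DKO barcodes, Trbc2 alone in 194 and 80, and Trbc1 alone in 29 and 12. Id3, an inhibitor of E proteins, had 141 and 28 UMIs in control and DKO T cells (log2 ratio -1.44, interval -2.08 to -0.84), and Jun 82 and 13 UMIs (log2 ratio -1.76, interval -2.73 to -0.91), both under 50 CPM on average. In B cell barcodes, at summed depths of 11502018 and 10223744 UMIs, Id3 had 1596 and 805 UMIs and Jun 635 and 407. Neutrophil barcodes, at 23553178 and 21710165 UMIs, held 25 and 7 for Id3 and 541 and 257 for Jun. The Y-linked gene Ddx3y had 139 and 82 UMIs and Xist 1 and 0.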
